A study of Homo sapiens with 8 samples.

Results

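Long single-exon peaks are stretches of at least 1000 bases of immunoprecipitated RNA that lie within 1 exon block of the authors' peak list. They were chosen by 2 columns of that list, the number of blocks (1) and the distance between the peak's ends (1000 bases or more). No enrichment or fold value entered the rule, but the ends come from the authors' peak calling, so length and enrichment are not independent. The rule took 563 of 22626 peaks (2.49%), which belonged to 534 genes by identifier, 522 of them named. The list held 15743 single-exon peaks in all, so 15180 shorter ones served as the nearest comparison, beside 500 peaks of more than 1 block that carried at least 1000 exonic bases.

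The study measured N6-methyladenosine (m6A) in poly(A)-selected RNA of HCT116, an established human colorectal carcinoma line, by immunoprecipitation with an anti-m6A antibody and sequencing of the precipitate (IP) and the input. Cells carried a stable non-targeting hairpin (shNC, genotype given as WT) or a stable hairpin against ALKBH5 (shALKBH5, genotype given as ALKBH5 knockdown), the demethylase that removes m6A. Each arm had 2 IP and 2 input libraries, 8 in all. The titles name a single ALKBH5 hairpin, nothing says that replicates were separate cultures, and the labels name more than 1 antibody and fragment length. The list gives 1 value per peak over all libraries, so read depth, replicate spread and the ALKBH5 level of each library were not analysed here. Which arm is the numerator of the deposited log2 fold is not stated either, and folds are therefore called positive or negative only. Whether a fold was corrected for the transcript's own level is also not given in the sources used here.

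As background, m6A is added to nuclear transcripts by the METTL3-METTL14 complex, mostly in a short motif whose core is GGAC with the adenosine modified. Methylation is most frequent in long internal exons and in last exons, near stop codons. Exon junction complexes deposited at splice junctions are known to shield nearby RNA, so that stretches far from any junction are the more open to the writer complex. ALKBH5 and FTO remove the mark, and YTH and IGF2BP proteins read it.

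To show what RNA of such peaks looks like, 3 stretches are printed where a RefSeq window around a gene start (GRCh38.p14, 250 bases before to 50 after the start) lies in a long single-exon peak. They are written 5′ to 3′ on the strand of the peak, in lower case, with each GGAC in capitals. The first belongs to NUMA1, a mitotic spindle protein gene, at chr11:72014041-72014340 on the minus strand, bases 93 to 392 of a 1529-base peak that the start of NUMA1-AS1 faces from the other strand. The second belongs to the non-coding RNA ADIRF-AS1, at chr10:86970086-86970385 on the minus strand, bases 59 to 358 of a 1378-base peak. The third holds the first 90 bases of the 2963-base peak on MALAT1, a nuclear non-coding RNA, at chr11:65499005-65499094 on the plus strand.
NUMA1: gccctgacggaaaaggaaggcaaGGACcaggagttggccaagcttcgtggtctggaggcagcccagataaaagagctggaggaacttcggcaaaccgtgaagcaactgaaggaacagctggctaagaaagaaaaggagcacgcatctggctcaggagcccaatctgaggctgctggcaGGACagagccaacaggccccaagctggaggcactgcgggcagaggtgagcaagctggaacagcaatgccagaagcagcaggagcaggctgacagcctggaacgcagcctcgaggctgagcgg
ADIRF-AS1: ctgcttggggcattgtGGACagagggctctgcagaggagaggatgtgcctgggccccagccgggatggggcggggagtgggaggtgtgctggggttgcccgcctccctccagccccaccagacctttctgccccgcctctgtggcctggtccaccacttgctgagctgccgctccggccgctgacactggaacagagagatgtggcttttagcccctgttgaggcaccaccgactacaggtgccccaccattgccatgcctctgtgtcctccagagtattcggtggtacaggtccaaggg
MALAT1: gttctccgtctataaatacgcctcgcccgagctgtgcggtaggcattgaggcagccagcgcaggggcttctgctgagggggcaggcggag
The NUMA1 stretch holds 2 GGAC and the ADIRF-AS1 stretch 1, while the 90 bases of MALAT1 hold 0. In NUMA1, 1 of the 3 reading frames runs through all 300 bases without a stop codon; among all 35116 windows 25.3% have such a frame. A GGAC was present on the gene's strand in 66.3% of all windows, and in 30% when only their last 90 bases were read. Windows wholly within a long single-exon peak numbered 6, and all 6 held GGAC on the peak's strand, beside 15 of 21 (71.4%) within shorter single-exon peaks. With so few windows, and since GGAC is common in any sequence of this length, these matches describe the letters and mark no modified site. The longer form GGACT was found in 1 of the 6 and in 25.3% of all windows.

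The peaks were few, and their share of the listed bases exceeds their 2.49% share of peaks because they were chosen by length. Their lengths summed to 784837 bases, 8.75% of the exonic bases of all listed peaks, with overlapping listings counted each time. The median length was 1261 bases and the longest reached 4680, while shorter single-exon peaks had a median of 270. Of 563 peaks, 529 lay on protein-coding genes, 12 on long non-coding RNAs, 6 on pseudogenes of either kind and 1 on a ribosomal RNA, and 15 could not be placed in a RefSeq gene.

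Long single-exon peaks were strongly enriched in the IP, though a length that comes from peak calling is not independent of enrichment. The authors' fold enrichment (IP over input, 1 value per peak, as are the authors' peak p-values) had a median of 22.5, with quartiles of 15.7 and 32.3. It was 9.56 in shorter single-exon peaks and 10.1 in all peaks. An enrichment of at least 10 was recorded for 525 long single-exon peaks (93.3%), and for 50.9% of all peaks. Single-exon peaks of 500 to 999 bases lay between, with a median of 16.5, and the multi-exon peaks with at least 1000 exonic bases had 22. Spearman's rho of length with enrichment was 0.46 over all 15743 single-exon peaks and 0.15 over the 563 long ones, which share libraries and read depth. Thus the level at and above 1000 bases was that of equally long peaks spread over several exons, and it was only weakly related to length beyond that point.

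**Figure D1:**
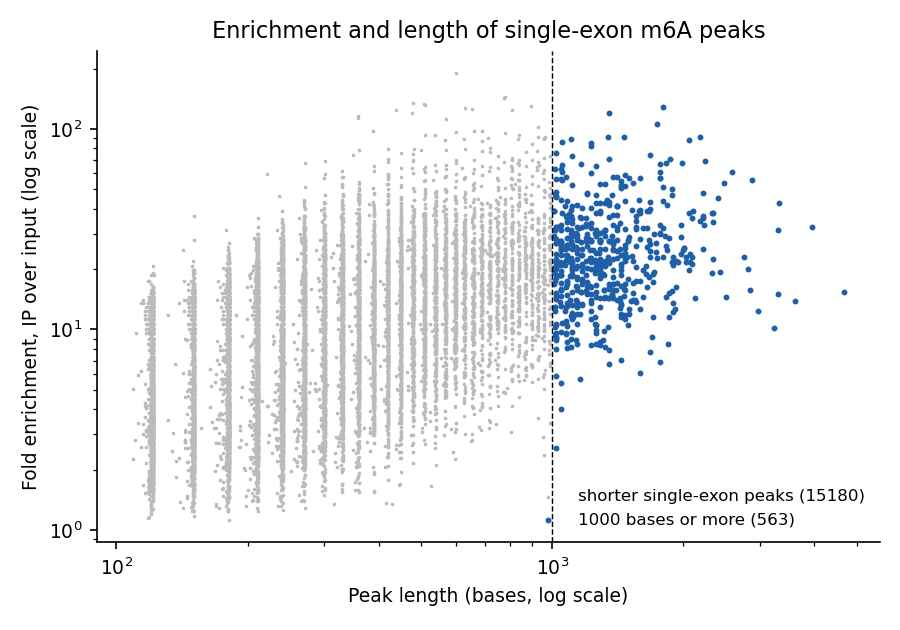
Fold enrichment (IP over input, log scale) against length in bases (log scale) for each single-exon peak. Grey points are the 15180 shorter peaks, blue points the 563 of at least 1000 bases, and the dashed line marks 1000 bases; the blue points sit between 2.57 and 129.

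The highest enrichments belonged to transcripts of unlike function. KLHL11, a substrate adaptor of cullin ubiquitin ligases, reached 129 over 1799 bases (chr17:41853492-41855290). DSE, an epimerase of dermatan sulfate synthesis, followed with 120 over 1351 bases, and ZFYVE9, an endosomal anchor of SMAD proteins, with 106 over 1741 bases. CEBPZ, a nucleolar protein of ribosome assembly, had 91.1 over 1459 bases, tied with ZBED5 at 91.1 over 2190 bases. At the other end stood MT-RNR2, the large ribosomal RNA of mitochondria, at 2.57, with the smallest enrichment of all 563 but a log10 peak p of -25000. PLBD2, a lysosomal protein, had 4.0, ZBTB7B, a zinc finger transcription factor, 5.38, and MEPCE, which caps the small nuclear RNA that restrains transcription elongation, 5.63. Peak p and enrichment therefore ranked these peaks in different orders.

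Between the arms, 82 long single-exon peaks (14.6%) passed a false discovery rate (FDR) of 0.05 in the authors' deposited table, and are here termed called. Of all peaks 8.23% passed there, 5.74% being positive and 2.49% negative in log2 fold. Among the 82, 44 were positive and 38 negative, so 53.7% were positive, beside 69.7% of all called peaks. Single-exon peaks of 500 to 999 bases were close to this, with 155 of 284 calls positive (54.6%). Multi-exon peaks with at least 1000 exonic bases had 67 calls of 500 (13.4%), 49 of them positive, by the same deposited FDR. At an FDR of 0.01 the call took 45 long single-exon peaks, beside 4.99% of all peaks, at an unadjusted p of 0.05 it took 180, beside 19.9%, and with an added absolute log2 fold of at least 1 it took 32, beside 4.68%.

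This split depended on where the folds were centred. The authors' deposited table has a median log2 fold of 0.14 over all peaks. After it was subtracted and calls were made again, 89 long single-exon peaks were called, 25 positive and 64 negative (28.1% positive), beside 7.77% of all peaks, of which 53.1% were positive. Of the 82 peaks, 64 kept their call, and the 25 new calls all had negative folds as deposited. Recentring read the deposited p as one-sided and did not double the new p. Recentring and doubling together were not run. If the deposited p is one-sided, it has to be doubled: then 61 peaks were called, 36 positive and 25 negative (10.8%, beside 6.36% of all). With p doubled the share of positive calls was 59%, beside 72% of all called peaks. Among single-exon peaks of 500 to 999 bases it was 57.5% with p doubled and 35.7% after recentring, again below all called peaks.

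The larger share of calls went together with smaller peak p-values. The median log10 peak p was -46.3 in long single-exon peaks and -8.2 in all peaks; the part of peak p in the share of calls was compared by class only. With peaks sorted into classes of log10 peak p, the authors' deposited table called 2.56% of 39 long single-exon peaks above -10, and 2.36% of shorter ones. In the next class, -30 to -10, the calls were 7.23% of 166 and 9.16%. They were 13.9% of 209 and 18.4% from -100 to -30, and 26.8% of 149 and 33.5% below -100. Within the 3 classes of smaller p, then, long single-exon peaks were called less often than shorter ones, by counts that were not tested, although over all classes they were called more often.

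**Figure D2:**
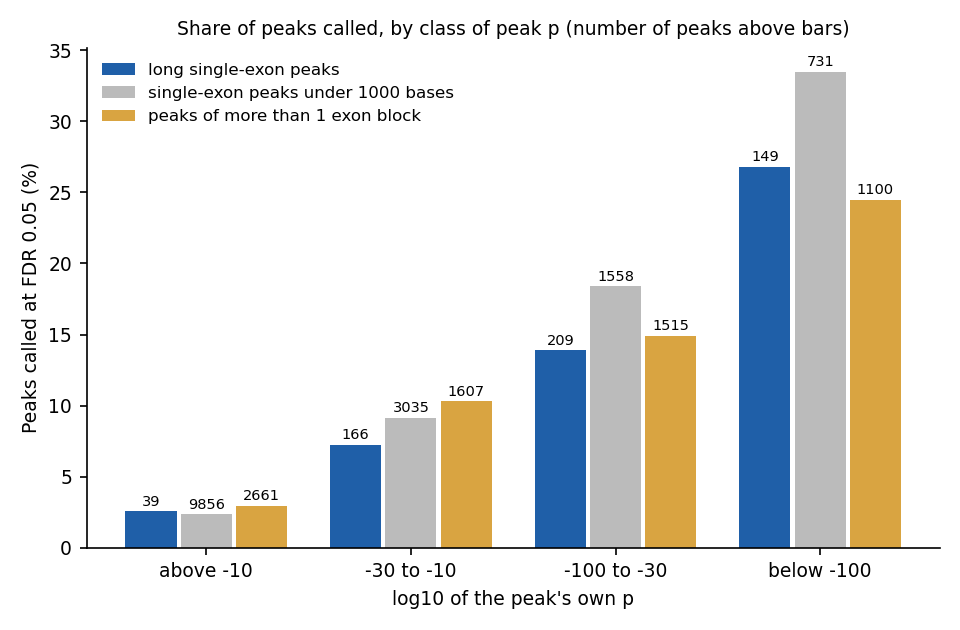
Percent of peaks called at an FDR of 0.05 (vertical axis, from 0) in 4 classes of the log10 peak p, for long single-exon peaks, shorter single-exon peaks and peaks of more than 1 block. Numbers above the bars are peaks; the bars for long single-exon peaks rise from 2.56% to 26.8% and stand below those of shorter single-exon peaks in the 3 classes at the right.

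Folds of long single-exon peaks were small. In the authors' deposited table their log2 fold had a median of 0.02, quartiles of -0.36 and 0.41 and an SD over peaks of 0.67, beside a median of 0.14 and an SD of 1.11 over all peaks. A fold of at least 1 in either direction was listed for 13.0% of them and for 33.4% of all peaks. In multi-exon peaks with at least 1000 exonic bases the SD was 0.56 and that share 7.8%, so small folds were not particular to single-exon peaks. Of the 82 called, 50 (61.0%) had an absolute log2 fold under 1, beside 43.2% of all called peaks and 77.6% of the called peaks in that multi-exon class. The median absolute log2 fold of the 82 was 0.84, beside 1.12 in all called peaks. Enrichment was lower in the called than in the uncalled peaks, with medians of 16.2 and 23.4. Called ones also had smaller peak p-values, with median log10 values of -98 and -40.1. The largest positive fold, 2.03 on the protocadherin gene PCDHAC2, and the largest negative, -2.58 on the zinc finger gene ZNF12, both missed the deposited FDR threshold at 0.24 and 0.29, and both peaks had a log10 peak p above -10.

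The spread narrowed with length. From the authors' deposited table, the SD of the log2 fold over peaks was 0.75 in 225 peaks of 1000 to 1199 bases, 0.68 in 197 of 1200 to 1499, 0.58 in 96 of 1500 to 1999 and 0.29 in 45 of at least 2000. Calls numbered 28, 28, 23 and 3 in those classes (12.4%, 14.2%, 24% and 6.67%). The 45 longest had folds between -0.50 and 0.94 with a median of 0.13. Of their 3 calls, SON and F2RL1 were positive and MALAT1 negative. Median log10 peak p fell over the same length classes, at -35.4, -40.7, -61.1 and -114. With long single-exon peaks sorted into the classes of peak p, the SD was 1.19, 0.79, 0.58 and 0.41 from largest to smallest p. The parts of length and of peak p in the spread were not tested.

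**Figure D3:**
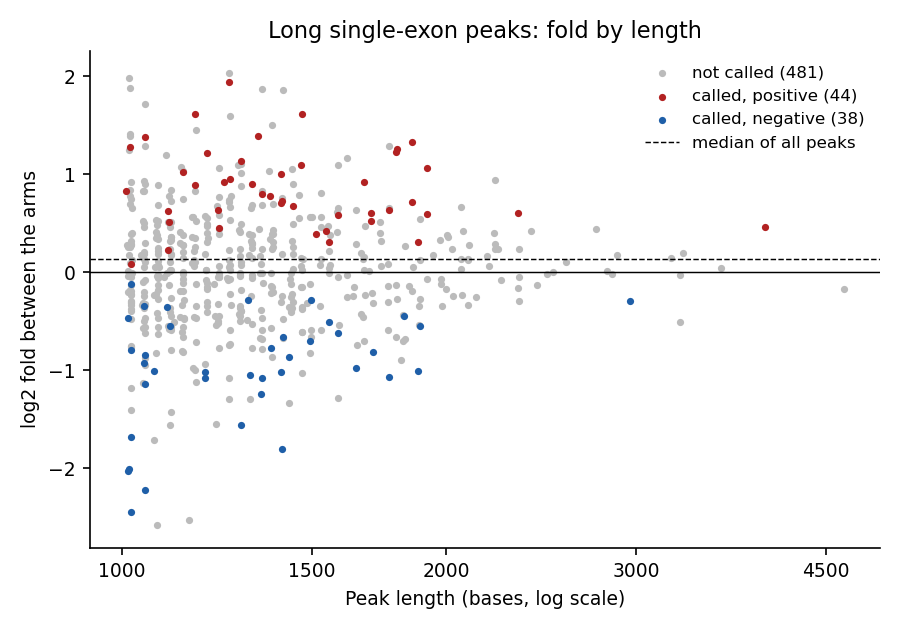
Deposited log2 fold between the arms (vertical axis) against length in bases (log scale) for the 563 long single-exon peaks. Red points are the 44 called with a positive fold, blue points the 38 called with a negative fold and grey points the others; the dashed line is the median of all peaks (0.14), and the points converge toward 0 at the right.

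The 8 longest peaks lay on 7 genes. The longest, 4680 bases, and the third, 3600 bases, were on AHNAK, which encodes a giant scaffold protein beneath the plasma membrane. SON, a nuclear speckle protein that supports splicing, had 3952 bases (chr21:33551130-33555081) at an enrichment of 32.3, and the authors' deposited table gave a log2 fold of 0.46 (FDR 4.7e-06). RANBP6, an importin-family protein, had 3317 bases, while MKI67, the Ki-67 proliferation antigen, and ARHGAP35, a GTPase-activating protein, had 3294 each. SEC16A, which organises endoplasmic reticulum exit sites, had 3236. Of these 4 genes none was called in the authors' deposited table, with log2 folds of 0.20, -0.50, -0.02 and 0.14 in the order named. The MKI67 peak was called after recentring. MALAT1 closed the set with 2963 bases (chr11:65499005-65501967), whose first 90 bases are printed above.

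Among called peaks, the 6 largest positive folds lay on genes of different function. LATS1, a kinase of the Hippo pathway, had a 1256-base peak (chr6:149683316-149684571) with a log2 fold of 1.94 and an FDR of 0.0035 in the authors' deposited table. NRBF2, a subunit of the autophagy lipid kinase complex, had 1.39 (FDR 0.0011) and FYCO1, an adaptor for autophagosome transport, 1.33 (FDR 0.0011), again from the authors' deposited table. BTBD3, a BTB-domain protein, had 1.62 (FDR 0.014) there. These 4 calls also held with p doubled and with folds recentred. EXPH5, a RAB27 effector, at 1.62 (FDR 0.036 in the authors' deposited table) and ADCY9, an adenylyl cyclase, at 1.38 (FDR 0.041) were lost under both. Other listed peaks of LATS1, EXPH5, ADCY9 and FYCO1 had median log2 folds of -0.08, 0.25, 0.44 and 0.10, with none called there. The called peaks were picked for their large folds, and the difference within these genes was not tested.

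The 6 largest negative folds included 3 genes of the zinc finger list. ZNF638 had a 1051-base peak (chr2:71422880-71423930) at an enrichment of 66.4 and a log2 fold of -2.22 (FDR 0.0066) per the authors' deposited table. CHST14, a sulfotransferase of dermatan sulfate synthesis, was listed at -2.03 (FDR 0.00012) there, and once more at -2.01 for a peak that starts 1 base away, so these are 1 locus. LINC00847, a non-coding RNA, had -1.56 (FDR 0.0018) per the authors' deposited table, and an unnamed gene on the opposite strand carried an overlapping peak at -1.82. ZNF292 at -2.45 (FDR 0.032 in the authors' deposited table), RLF, another zinc finger gene, at -1.80 (FDR 0.028) and ZNF195 at -1.68 (FDR 0.043) were lost with p doubled. A second long peak on ZNF638 had a log2 fold of -0.30 (FDR 0.46) and a second one on ZNF292 had -0.37 (FDR 0.61) per the authors' deposited table. The called peaks were picked for their large folds, and the difference between the peaks of a gene was not tested.

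The 4 smallest FDRs came with absolute log2 folds under 1. MALAT1 had a log2 fold of -0.29 (FDR 1.3e-42) and MT-RNR2 of 0.08 (FDR 4e-34) per the authors' deposited table. The sign of MT-RNR2 rests on the centring, since it became -0.06 after recentring, where it was called too. F2RL1, the protease-activated receptor PAR2, had a 2332-base peak (chr5:76832715-76835046) at 0.61 (FDR 2.5e-29), and VGF, a secreted neuropeptide precursor, a 1429-base peak (chr7:101163075-101164503) at -0.87 (FDR 2e-27), per the authors' deposited table. PLBD2 was negative at -0.34 (FDR 1.9e-05) and KLHL11 positive at 1.26 (FDR 0.022) there. The MT-RNR2 and MALAT1 folds are thus far smaller than that of LATS1 at a much smaller FDR.

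Just inside were MRFAP1L1 at 1009 bases (log2 fold 0.83, FDR 0.0078 in the authors' deposited table), UTP3 at 1011 (0.28) and ZNF18 at 1012 (-0.04). Just outside were SCAF11 and IQCD at 991 bases each (0.53 and 2.14, neither called in the authors' deposited table) and ERC1 at 990 (0.22). Of 75 peaks of 1000 to 1049 bases 12 were called (16%), and of 119 peaks of 950 to 999 bases 23 (19.3%), with median enrichments of 20.6 and 20. The calls inside were 3 positive and 9 negative, and those outside 13 positive and 10 negative.

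Position along the gene was taken from RefSeq for 548 of the 563 peaks. Distances were genomic, to the outer bounds of the gene with introns counted, so they are not distances along a transcript. The edge nearer the 3′ end lay within 1000 bases of that end in 169 (30.8%), beside 29.9% of shorter single-exon peaks and 25.7% of all peaks. The edge nearer the 5′ end lay within 1000 bases of the start in 11.9%, beside 12.5%, and 62.4% were more than 1000 bases from both ends, beside 61.4%. By edges, then, the shares of long and of all shorter single-exon peaks were close in each place. In the nearest class, 500 to 999 bases, they were 30.8% near the 3′ end, 7.35% near the 5′ end and 64.5% far from both. The 5′ share was thus lower there than in long peaks, a difference that was not tested. Measured at the centre, 15.3% of long peaks lay within 1000 bases of the 3′ end, beside 27% of all shorter ones. The centre of a long peak is, however, at least 500 bases from its own edge. Which of these are last exons, coding sequence or untranslated sequence was not analysed here, since the table of genes holds no exons.

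Calls were spread over all these places. Of 342 peaks over 1000 bases from both ends, 43 were called (12.6%), 23 positive and 20 negative in the authors' deposited table. Of 146 reaching within 1000 bases of the 3′ end, 26 were called (17.8%), 13 of each sign, and of 36 near the 5′ end 4 (11.1%), 2 of each sign. Another 24 peaks covered at least 50% of their gene, 4.38% of those placed, beside 0.572% of shorter single-exon peaks, a contrast that the length rule favours. Of these 24, 7 were called (29.2%), 4 positive and 3 negative, beside 14.6% of all long single-exon peaks and 8.23% of all peaks. The median log10 peak p of the 24 was -198, beside -46.3 in all long single-exon peaks.

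These 24 genes are compact, and the examples given were chosen after their values were seen. SFN, which encodes the sigma member of the 14-3-3 adaptors, was covered over 100% of its length by a 1308-base peak, with a log2 fold of -0.29 (FDR 6.3e-14) per the authors' deposited table. CLDN4, a tight junction claudin, was covered over 100% too, at 0.01 (FDR 0.64) there. RHOB, a small GTPase, was covered over 72.2% and had a log2 fold of -0.82 (FDR 5e-18), the largest fold of the 3 negative calls in this set per the authors' deposited table. RNF113A, a spliceosomal ubiquitin ligase on chromosome X, was covered over 92.9% at 0.89 (FDR 0.017 in the authors' deposited table), a call lost on recentring. SEPHS2, TAF7 and TRMT12, covered over 98.7%, 97.4% and 93.4%, were not called there.

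Most genes held a single long peak. It was the only member in 511 genes, 20 genes held 2, EPPK1 held 3, AHNAK2 4 and AHNAK 5. The long peak was the only listed peak of its gene in 142 cases (25.2%), beside 27.4% of all peaks. In 388 genes with a long and at least 1 other peak, the median enrichment of the long peaks was the higher in 330 (85.1%), at medians over genes of 21.9 and 10.4. The length rule may favour this contrast. The folds of long and other peaks were hardly related. Long and other peaks had the same sign in 222 of 388 genes (57.2%), with Pearson's r of 0.10 and Spearman's rho of 0.15 across genes that share the same libraries, from the authors' deposited table. Calls fell on both kinds of peak in 17 genes, on the long peak alone in 41, on another peak alone in 32 and on neither in 298. Over the list, 14.6% of long single-exon peaks and 8.23% of all peaks were called, and whether calls coincide within genes was not tested. Some other peaks share bases with the long one, as on GJC1 (829 bases, log2 folds of 0.93 and 0.95, both called in the authors' deposited table).

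AHNAK held the most long peaks. Its 5 long peaks spanned chr11:62516292-62532488 on the minus strand and took up 13051 of those 16197 bases (80.6%), at enrichments from 8.16 to 15.3. From the 5′ side, the authors' deposited table lists them at log2 folds of 0.05, -0.17, 0.08, -0.55 and 0.38. Only the 1891-base peak at -0.55 was called (FDR 0.028), a call lost with p doubled (FDR 0.054). The longest, at -0.17, had an FDR of 0.26 and was called after recentring. The signs of the 2 smallest rest on the centring: after recentring they were -0.09 and -0.06, and only the peak at the 3′ side stayed positive, at 0.24.

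AHNAK2, a related scaffold gene, carried 4 long peaks among 23, of which 2 are near-identical listings of the same 3′ stretch. Their log2 folds ran from -0.12 to 0.38 in the authors' deposited table, with none called, while its 19 other peaks ran from -1.91 to 1.20, none called either. EPPK1, which encodes the cytoskeletal linker epiplakin, carried 3 among 14, again with 2 near-identical listings at -0.40. Its 1350-base peak had a log2 fold of -1.08 (FDR 0.00014), and 3 further EPPK1 peaks were called in the authors' deposited table, all negative, although 2 of those are near-identical and the third overlaps the 1350-base peak. The repeats within EPPK1 and AHNAK2 are near-identical in sequence, as is well known, so how reads were shared between them is uncertain.

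**Figure D4:**
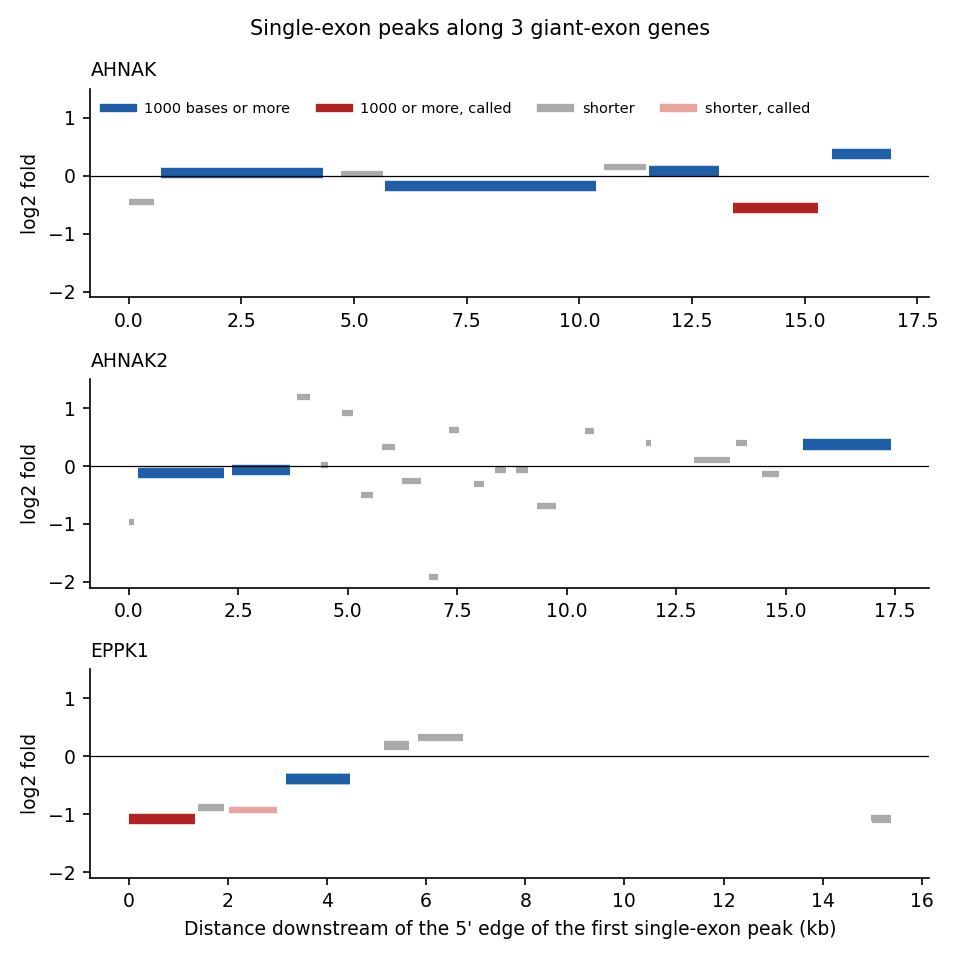
Deposited log2 fold (vertical axis) of each single-exon peak of AHNAK, AHNAK2 and EPPK1, drawn as a bar over its extent in kb downstream of the first single-exon peak. Long peaks are blue, or red when called, and shorter ones grey, or pink when called; long AHNAK bars lie between -0.55 and 0.38, and the called EPPK1 bars all lie below 0.

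Zinc finger genes, whose arrays of fingers are usually encoded in a single long exon, were the most frequent family. They held 72 of the 563 long peaks (12.8%), on 67 genes, although their 1084 peaks were 4.79% of the whole list; 6.64% of zinc finger peaks were long, beside 2.49% of all. Median enrichment was 24.9. Folds centred near 0, with a median log2 fold of -0.02 in the authors' deposited table and 34 of 72 positive. Only 4 were called (5.56%), all negative: ZNF638, ZNF292 and ZNF195 as above, and ZNF263 at -1.24 (FDR 0.013) per the authors' deposited table. Another peak of ZNF263 was called there with a positive fold, 1.51. This share of calls is below the 14.6% of all long single-exon peaks and the 8.23% of the whole list. Some of these peaks had a large log10 peak p, such as ZNF12 at -6.86 and ZNF816 at -7.22, while ZKSCAN1 had -128. Of long single-exon peaks, 2.56% were called above -10 and 7.23% from -30 to -10. Whether the low share of zinc finger calls goes with peak p was not tested.

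Other gene lists held fewer members, and with so few peaks their called shares are only to be read beside the 14.6% of all long single-exon peaks and the 8.23% of all peaks. RNA regulation had 7, of which 2 were called (28.6%), both positive: SON and SRRM2, 2 scaffold proteins of nuclear speckles, the latter at 0.60 (FDR 6e-08) per the authors' deposited table. RBM15, an m6A writer subunit that guides the complex to RNA, had a 2335-base peak at 0.24 (FDR 0.46), and its paralog RBM15B a 2129-base peak at -0.25 (FDR 0.33), per the authors' deposited table. RBM15 and RBM15B were also the only genes of the m6A machinery with a long single-exon peak.

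A list of transcription factor and signalling gene symbols, drawn up for genes with few or no introns, held 7 long peaks with a median log2 fold of 0.45, and 2 calls (28.6%), both positive, in the authors' deposited table. SOX4, a developmental transcription factor, had 0.61 (FDR 0.00055), and FOXK2, a forkhead factor, 0.45 (FDR 0.0065), which was lost on recentring. FOXK1 with 2 of the 7 peaks, FOXK2 and CEBPZ entered this list by their symbols and have introns, so at least 4 of the 7 lie on genes that do not match its name. The list of long non-coding RNA symbols held 12, with MALAT1 and LINC00847 called negative (16.7%) and a median of 0.03. UCA1, a long non-coding RNA by its RefSeq type that the symbols missed, was called positive at 0.31 (FDR 0.0019 in the authors' deposited table, lost on recentring).

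Ubiquitin ligases and deubiquitinases held 16 long peaks, of which 3 were called (18.8%). KLHL11 and RNF113A were called positive and RNF26, at -0.45 (FDR 0.025 in the authors' deposited table, lost with p doubled), negative. The cadherin superfamily held 4, of which 1 (25%), on PCDH1, was called at -0.51 (FDR 0.031 in the authors' deposited table), also lost with p doubled. The giant scaffold list held 14 with 2 negative calls, on AHNAK and EPPK1 (14.3%), a share near that of all long single-exon peaks.

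Several lists had no call at an FDR of 0.05 in the authors' deposited table: 8 long peaks of chromatin regulators, such as ARID1A at 0.13 and KAT6A at -0.33, 8 of solute carriers, 5 of the Wnt pathway and 2 of MKI67 in the genome maintenance list. The longer MKI67 peak was called after recentring. In the Wnt list APC, the scaffold of beta-catenin destruction, held 2, at 0.07 (FDR 0.68) and 1.72 (FDR 0.33), and BCL9L, a beta-catenin coactivator, 1 at -0.27 (FDR 0.19) that was called after recentring. Of mitochondrially encoded RNAs only MT-RNR2 held a long peak, and mitochondrial pseudogenes held 0 of 3 peaks.

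**Figure D5:**
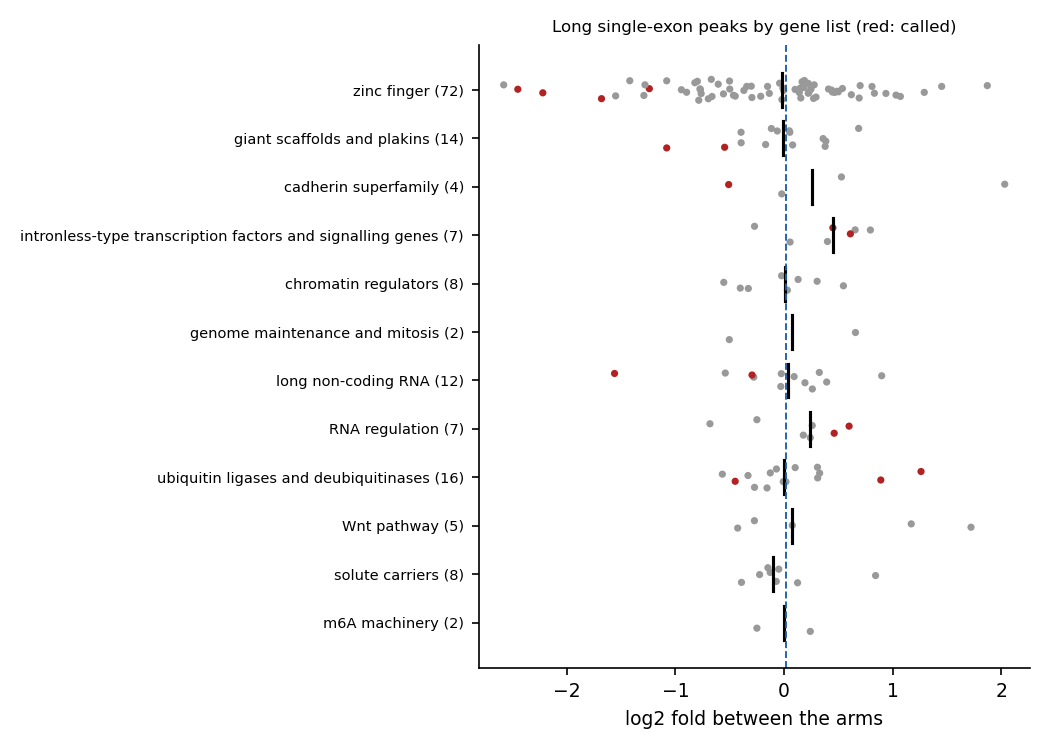
Deposited log2 fold (horizontal axis) of each long single-exon peak in 12 gene lists, with the number of peaks in brackets. Points are peaks, red when called, black bars are list medians and the dashed line is the median of all 563 (0.02); the 4 red zinc finger points all lie to the left of 0.

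HCT116 is epithelial, and of 16 peaks on colorectal epithelial markers 2 were long single-exon peaks, both on CLDN4 and overlapping. Fibroblast markers had 1 peak in the whole list, leukocyte and endothelial markers 0 and neuronal markers 7, none of them long. A peak list shows precipitated RNA only, so these counts are no measure of expression.

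Some long peaks are listed more than once. At least 1 base was shared with another listed peak by 112 of the 563, on the same strand by 54 (22 of them within the same gene) and on the opposite strand by 64. Counted from each long peak, there were 70 overlaps with an opposite-strand peak, and a pair in which both peaks are long enters from both sides. Of these 70, 55 had folds of the same sign and 23 had log2 folds within 0.2 of each other in the authors' deposited table. The repeated pairs raise both counts. An example is RAB11FIP1, a recycling endosome adaptor, at 0.72, with an unnamed gene opposite at 0.78, both called there. PRSS23, a serine protease, at 1.06 and the Wnt receptor FZD4 at 1.17 share 1176 bases on opposite strands, neither called in the authors' deposited table. Likewise TICAM2 and the readthrough transcript TMED7-TICAM2 share 1191 bases at -1.02 and -1.08. Whether strand was used in the authors' counting is not stated, so which gene of such a pair carries the signal cannot be told apart. Merging overlapping members left 542 loci, with 78 called, 42 positive and 36 negative.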

How the data were processed

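RNA of 8 libraries (4 groups of 2) was processed by the authors into 1 list of 22626 peaks. GRCh38 is the build, and BWA 0.7.12 and HOMER 4.9.1 are tools, listed without a role per the submitters' processing notes, and the peak caller is a step not given in the sources used here. Per the file headers, the authors deposited for each peak a p-value, log10 values of p and FDR (handled as a score because they fall below -100), a fold enrichment as a linear ratio, and a log2 fold between arms. Samples were grouped by title. No column held a value of a single library, so depth is unknown and p-values cover only what the authors' comparison used.

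Peaks were counted and described with Python 3.11.15 and pandas 2.3.3, without a further test, because peaks are not replicates. Scripts were tested on simulated data. Starts were raised by 1 to be 1-based: 288 peaks then began on a gene's first base, beside 6 as deposited. Genes of GRCh38.p14 RefSeq were matched by symbol (540 long peaks) or synonym (8), within 100 bases of the gene.

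Members and lists were chosen with earlier results of these data known. Genes named are the 8 longest peaks, the 6 largest positive and 6 largest negative called folds, the 4 highest and 4 lowest enrichments, the 4 smallest FDRs, genes with 3 or more members, 3 peaks on each side of 1000 bases and up to 4 of each list. PCDHAC2 and ZNF12 (as extremes), the compact genes, the overlapping pairs, UCA1, ZBED5 and the second peaks of ZNF638, ZNF292, ZNF263 and APC were named after their values were seen. So were ZNF816, ZKSCAN1 and the other peaks of LATS1, EXPH5, ADCY9 and FYCO1. For recentred calls, a standard error was taken from fold and p, read as one-sided, where p was under 0.3. The 166 long peaks without it kept their deposited p. New p-values were one-sided too and were not doubled. If the deposited p is not one-sided, these standard errors do not hold. A result on 1 further compact gene is not reported here.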

Additional observations from a re-analysis of the deposited data

How the results depend on the processing

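Of the main values for long single-exon peaks (82 calls, 44 positive, 38 negative, median log2 fold 0.02, median enrichment 22.5, 15.3% with the centre within 1000 bases of the 3′ end), counts moved with the threshold. An FDR of 0.01 gave 45 calls (26 and 19), beside 4.99% of all peaks. An unadjusted p of 0.05 gave 180 (94 and 86), beside 19.9%, and an absolute log2 fold of at least 1 gave 32 (15 and 17), beside 4.68%. Doubling p left 25 negative calls. A minimum length of 800 bases gave 149 calls (77 and 72) of 1141 peaks (13.1%) and 18.8% near the 3′ end, and 1500 bases gave 26 (17 and 9) of 141 (18.4%) and 4.32%; fewer peaks enter with a longer minimum, while the share called rose. Windows of 500 and 2000 bases gave 0.182% and 35.4%. Subtracting the median of all peaks moved the median log2 fold to -0.12, and recentred calls were 25 positive and 64 negative. Counting each locus once, leaving out the mitochondrial chromosome, a peak p under 1e-10 and leaving out members with an opposite-strand overlap (71 calls, 36 and 35) kept each count within 1.5 times. The recentred calls and the opposite-strand alternative were chosen after seeing the data. No paired analysis was possible because the list holds no value per library. For the same reason leaving out each replicate was not run. Depth per library is unknown.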
